A study of Homo sapiens with 18 samples.

Results

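The genes described are those of the constitutive proteasome, the protease that degrades ubiquitin-tagged proteins, in Raji cells. Genes were taken by symbol from the platform's gene table (PSMA to PSMG with a number), and the immunoproteasome subunits PSMB8, PSMB9 and PSMB10 were left out. This gave 42 of 18417 measured genes, each read from its 1-gene probe set of highest mean, without any filter on dim genes. The reference gene table holds 45 such symbols, and PSMC5, PSMD7 and PSMD13 were not analysed here. The 42 genes were grouped by the letter after PSM in their symbols. The 20S core had 8 alpha (PSMA) and 8 beta (PSMB) subunits. The 19S regulatory particle had 5 ATPases (PSMC) and 12 non-ATPase genes (PSMD). The PSMD genes included chaperones of 19S base assembly, such as PSMD5 and PSMD10. The rest were 4 activators (PSME) with 1 inhibitor (PSMF), and 4 further assembly chaperones (PSMG).

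Raji is an established B-cell line from a human Burkitt lymphoma that carries Epstein-Barr virus. Groups of 3 arrays, labelled as biological replicates, were made at 0, 4, 8, 12, 24 and 48 h, which gave 18 arrays in all. Every group, 0 h included, carried the same agents in the labels: maslinic acid at 19 µM, a plant triterpene, together with sodium n-butyrate at 3 mM, a histone deacetylase inhibitor, and phorbol ester at 0.05 µM, which activates protein kinase C. The questions the design implies are which of these genes differed between a later harvest and 0 h, and between one harvest and the one before it. Cells left free of any of these agents were not analysed here, and effects of time in culture and of the 3 agents cannot be told apart.

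The 20S core is a barrel of alpha rings around beta rings, and the proteolytic sites sit in the subunits encoded by PSMB5, PSMB6 and PSMB7. The 19S particle caps the barrel, binds ubiquitin chains and feeds unfolded substrates inward with its ring of ATPases. PSME1 and PSME2 encode the alpha and beta chains of the PA28 cap, which interferon gamma induces together with the immunoproteasome subunits and which favours the production of peptides for class I antigen presentation. PSME3 encodes PA28 gamma, a mostly nuclear cap, and PSME4 encodes PA200.

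Array medians lay between 4.03 and 4.25 on the log2 scale. The interquartile range was 2.37 on replicate 2 of 8 h, while the other arrays ran from 2.74 to 3.16. Of the 7 B cell markers listed, 5 were measured and 4 of these lay above the median of all genes on every array. Of the measured markers, 0 of 6 for T cells, 0 of 5 for monocytes and macrophages, 0 of 4 for epithelium, 1 of 4 for fibroblasts (COL1A1) and 0 of 1 for erythroid cells did so.

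All values below are log2 intensities, and differences are log2 differences with their standard error (SE). They were tested with limma across all genes, and a gene was called at an adjusted p under 0.05. Levels of different genes are not set against each other, because probes differ in brightness. PSMA8, a testis form of an alpha subunit, and PSMB11, a thymus form of a beta subunit, lay below the lower quartile of all genes on all 18 arrays, and the other 40 genes lay above it on every array. Over those 40 genes, the pooled SD within a harvest time was 0.10 to 0.60 with a median of 0.29, and the 6 time means of a gene spanned 0.10 to 1.31 with a median of 0.59.

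At 48 h the PA28 genes PSME1 and PSME2 were higher than at 0 h, while most of the other proteasome genes had lower means. PSME1 rose 1.45-fold and PSME2 1.71-fold, and they were the only members called higher. The nuclear cap gene PSME3 fell 1.78-fold, and PSMA3, PSMB2, PSMC6 and PSMG1 fell by 1.47- to 1.73-fold. That made 7 of 42 members (16.7%) called at 48 h, against 15.0% of all genes. In each direction, 2 were higher, against 6.92% of all genes, and 5 were lower, against 8.11% of all genes. Over both directions, the share of members called was thus near that of all genes. An unadjusted p under 0.05 (limma) was found for 16 of 42 members, against 26.3% of all genes.

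The members' median difference at 48 h was -0.32, against 0.05 over all genes. Negative differences were found for 31 of 42 members, against 8040 of 18417 genes. The replicates of 48 h were uneven. Of the 40 members other than PSME1 and PSME2, 34, 28 and 20 lay below their 0 h means on replicates 1 to 3. The split of the calls by direction depended on scaling, and no called value changed sign. The called members split into 2 higher and 5 lower as deposited (28.6% higher), 2 and 1 after quantile normalization (66.7% higher) and 1 and 11 after centring each array on its median (8.3% higher). PSME3 was the 1 lower call after quantile normalization. Centring moved the median of all genes by -0.14 at 48 h and -0.12 at 12 h. The members' median at 48 h was -0.19 after quantile normalization and -0.46 after centring, and negative differences numbered 27 and 37. The count of 7 calls was 4, 2 and 3 without replicate 1, 2 or 3 of 0 h, and 3 without replicate 1 or replicate 2 of 48 h. In such bulk RNA, a lower level in every cell and a loss in some of the cells cannot be told apart.

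**Figure D1:**
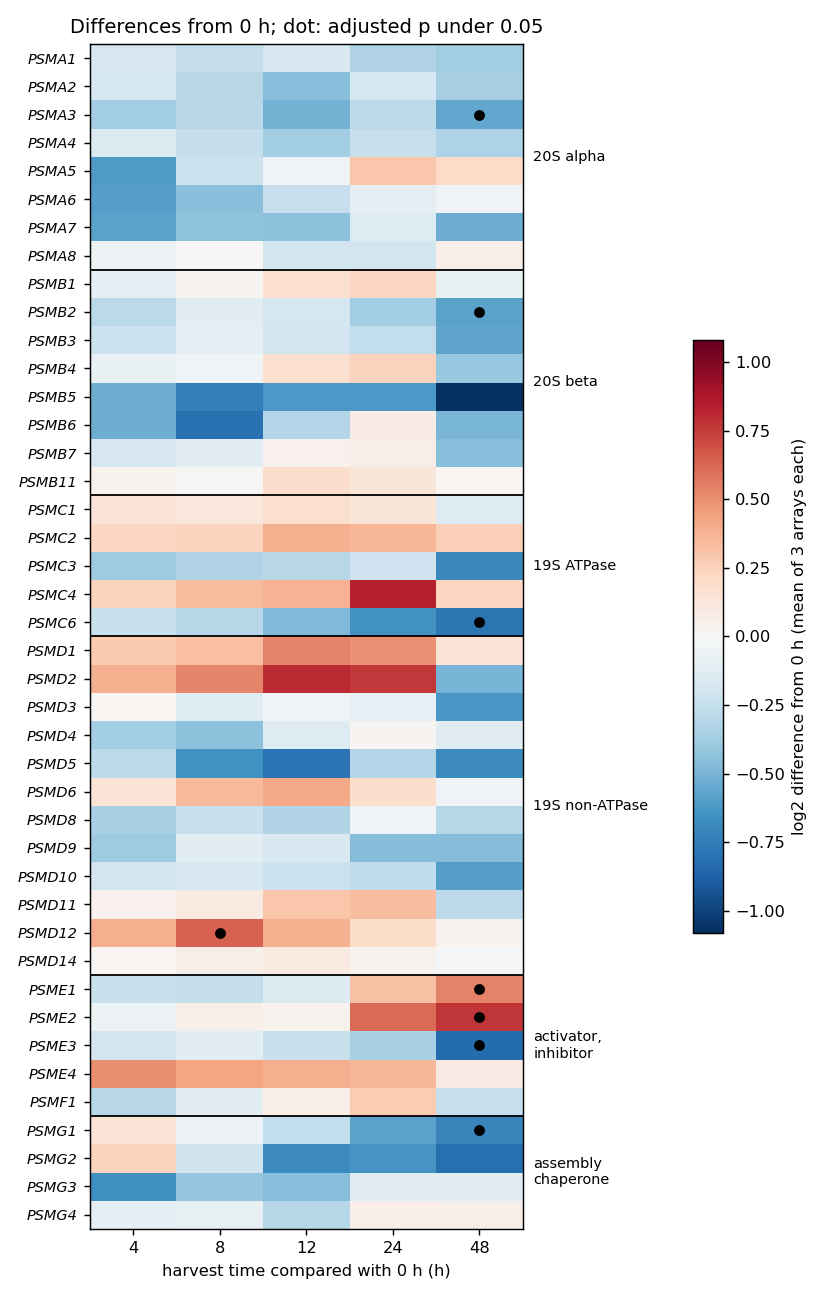
Log2 difference from 0 h (colour; difference of means of 3 arrays each) for the 42 genes, in rows grouped by role, at 4, 8, 12, 24 and 48 h. Black dots mark differences called at an adjusted p under 0.05 by limma: PSMD12 at 8 h and 7 genes at 48 h, of which PSME1 and PSME2 are red and the others blue.

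The PA28 genes are neighbours on chromosome 14 with EMC9 between them. Their RefSeq promoter sequences (GRCh38.p14) are shown because both genes passed the test in the same direction. Promoters of 36 of the 42 members were matched, and the 250 bases before each start were read. The PSME1 window is chr14:24135944-24136193 on the plus strand, and the PSME2 window is chr14:24146611-24146860 on the minus strand. Capitals mark matches to 2 of the 4 motifs searched, an interferon-stimulated response element core (GAAANNGAAA) and an antioxidant response element core (TGACNNNGC), on either strand.
PSME1: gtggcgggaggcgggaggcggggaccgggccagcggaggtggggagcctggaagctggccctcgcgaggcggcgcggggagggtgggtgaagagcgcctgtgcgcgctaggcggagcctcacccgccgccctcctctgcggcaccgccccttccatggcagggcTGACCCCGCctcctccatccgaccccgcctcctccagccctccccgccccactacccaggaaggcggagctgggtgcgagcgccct
PSME2: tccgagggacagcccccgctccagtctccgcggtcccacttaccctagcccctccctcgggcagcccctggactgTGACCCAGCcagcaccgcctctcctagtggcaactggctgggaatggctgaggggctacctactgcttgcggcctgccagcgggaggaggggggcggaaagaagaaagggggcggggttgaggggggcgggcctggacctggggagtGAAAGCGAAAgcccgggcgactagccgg

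PSME2 held GAAAGCGAAA from 28 to 19 bases before its start and TGACCCAGC from 175 to 167 bases before it. PSME1 held TGACCCCGC from 86 to 78 bases before its start and no match to the interferon-stimulated core in this window. That core was found for 4 of 36 members (11.1%) and for 3.71% of 27305 genes, in windows of the same length. A gene was counted if any of its windows held the motif, and some genes, PSMA4 among them, had more than 1 window. The 4 members were PSME2, PSMA4, PSMB4 and PSMG4, and PSMG4 held the same 10 letters as PSME2, from 33 to 24 bases before its start. Their differences at 48 h were 0.78, -0.34, -0.41 and 0.07, so promoters with the core were found on both sides of 0. The antioxidant core was found in 11 of 36 members (30.6%), against 13.2% of all genes with a promoter. A gamma-activated site core (TTCNNNGAA) was found in 6 of 36 members (16.7%), against 8.09%, and a CCAAT box in 16 of 36 (44.4%), against 37.0%, and neither was found in PSME1 or PSME2. None of the 4 motifs overlapped another within these promoters of PSME1 and PSME2. These matches are a description of letters only.

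PSME1, the PA28 alpha chain, had 9.44, 9.84 and 9.65 at 48 h, against 9.19, 9.16 and 8.97 at 0 h. All 48 h arrays lay above all 0 h arrays. The difference was 0.53 (SE 0.16, adjusted p = 0.0313, limma). At 4, 8 and 12 h the gene averaged 8.87 ± 0.11, 8.85 ± 0.18 and 8.96 ± 0.16 (SD, n = 3 each), which were differences of -0.24, -0.26 and -0.14 that did not pass the test. The 4 h arrays all lay below those of 0 h. At 24 h the arrays read 9.63, 9.51 and 9.14, a difference of 0.32 from 0 h (adjusted p = 0.254). The call at 48 h was lost on leaving out any single array of the 2 times other than replicate 1 of 48 h, with differences of 0.43 to 0.57 and adjusted p of 0.0510 to 0.133. It was also lost after centring, at 0.39 (adjusted p = 0.115). Over the whole course, PSME1 passed the F test of the 5 differences from 0 h (adjusted p = 0.00541) in the main fit and in all 26 alternatives.

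PSME2, the PA28 beta chain, had 9.47, 9.15 and 9.30 at 48 h, against 8.86, 8.60 and 8.14 at 0 h. The arrays of the 2 times did not overlap. The difference was 0.78 (SE 0.20, adjusted p = 0.0116, limma), and the call was lost on leaving out replicate 3 of 0 h (0.58, adjusted p = 0.0725) or replicate 1 of 48 h (0.69, adjusted p = 0.0545). At 4, 8 and 12 h PSME2 averaged 8.48 ± 0.28, 8.60 ± 0.29 and 8.57 ± 0.12 (SD, n = 3 each), differences of -0.06, 0.06 and 0.04 from 0 h that did not pass. At 24 h the arrays read 9.36, 9.05 and 9.01, all above those of 0 h, a difference of 0.61 that did not pass the test (adjusted p = 0.0544). PSME2 passed the F test (adjusted p = 0.0139) in the main fit and in all 26 alternatives.

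Between 12 h and 24 h, PSME2 had the largest positive difference of the 42 members, 0.57 (SE 0.20, adjusted p = 0.239), and PSME1 ranked 4 with 0.46 (SE 0.16, adjusted p = 0.233). For both genes all 24 h arrays lay above all 12 h arrays. The difference from 24 h to 48 h was 0.17 for PSME2 and 0.21 for PSME1, and neither passed the test. Of the 18417 genes, 5.41% had a difference at 48 h at least as large as that of PSME2, and 9.95% one at least as large as that of PSME1. Over the 18 arrays, which share their harvest times, PSME1 and PSME2 had a Pearson r of 0.80.

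**Figure D2:**
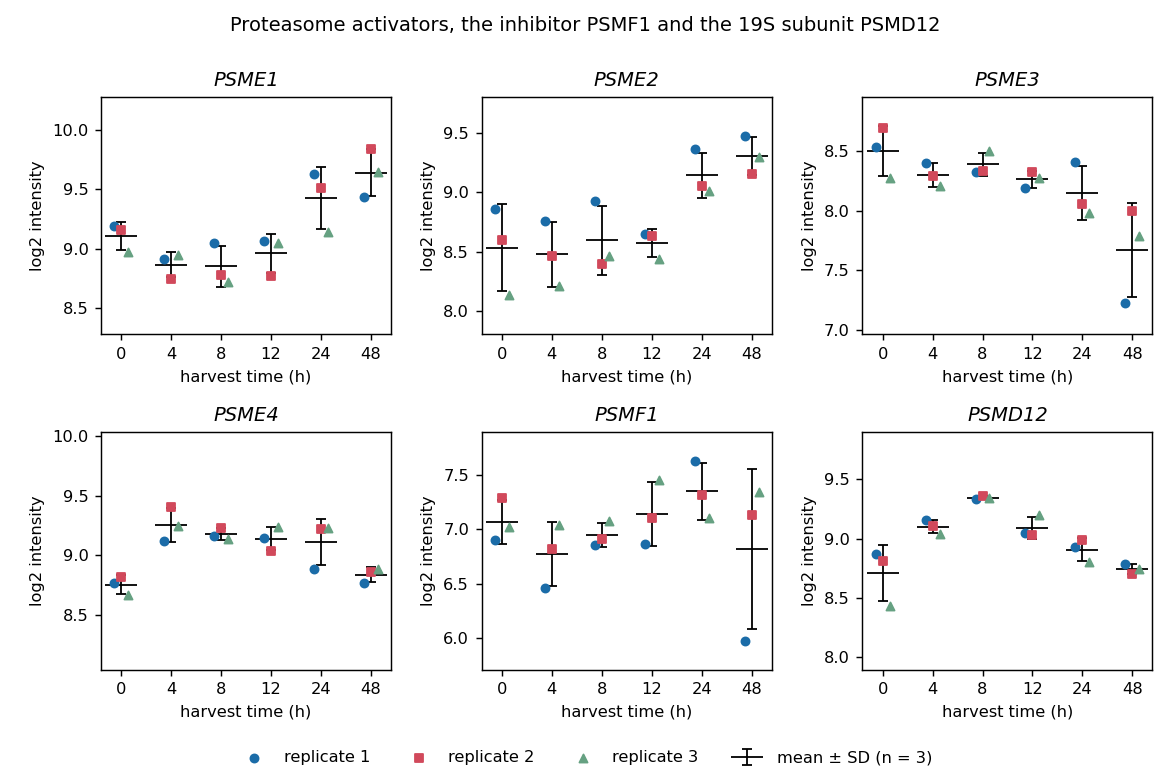
Log2 intensity by harvest time (h) of the activator genes PSME1 to PSME4, the inhibitor gene PSMF1 and the 19S subunit gene PSMD12. Points are single arrays, coloured by replicate number, and black bars are means ± SD of 3 arrays. PSME1 and PSME2 are highest at 24 and 48 h, PSME3 is lowest at 48 h, and PSMD12 is highest at 8 h.

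Set beside the rest of the proteasome genes, PSME1 and PSME2 lay at the upper end. The 40 other members had a median difference from 0 h of -0.35 at 48 h, with a range of -1.08 to 0.26, so that PSME2 ranked 1 and PSME1 ranked 2 of 42. At 24 h that median was -0.06, and PSME2 ranked 3 and PSME1 ranked 8. By array, the median of the 40 members relative to their 0 h means was -0.66, -0.18 and -0.004 on replicates 1 to 3 of 48 h. PSME2 lay above that median by 1.60, 0.80 and 0.77 on these arrays, and PSME1 by 0.99, 0.91 and 0.54. Replicate 1 of 48 h was thus low for the other members, with 34 of 40 below their 0 h mean, and it was not low for PSME2. PSME1 had its lowest 48 h value on this array, 0.33 above its 0 h mean, against 0.73 and 0.54 on replicates 2 and 3. On the 0 h arrays the differences from the median of the 40 members ran from -0.30 to 0.38 for PSME2 and from -0.05 to 0.13 for PSME1. No test was made of these differences, since the members were chosen with results known.

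**Figure D3:**
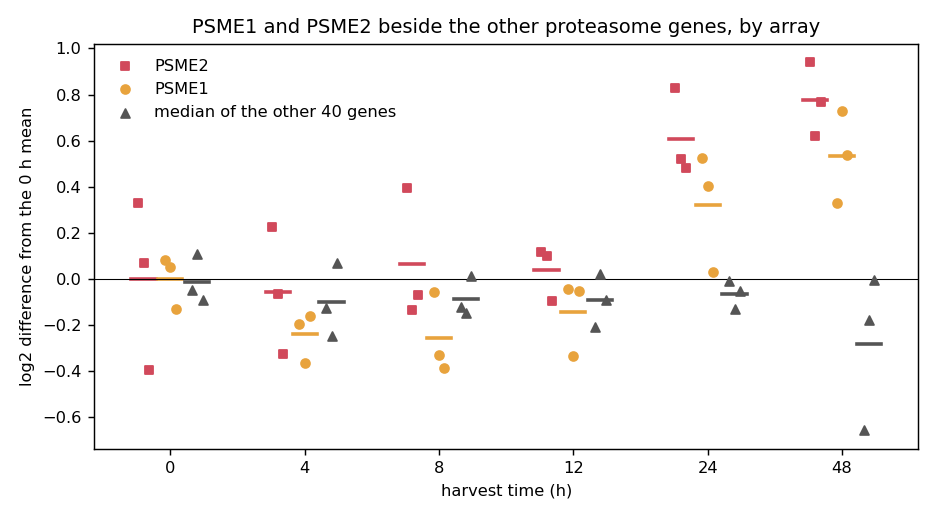
Log2 difference of each array from the 0 h mean, by harvest time (h), for PSME2 (squares), PSME1 (circles) and the median of the other 40 proteasome genes (triangles). Short bars are means of 3 arrays. At 48 h every PSME1 and PSME2 point lies at 0.33 or higher, and the 3 medians lie between -0.66 and -0.004.

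The other caps had courses of their own. PSME3 (PA28 gamma) had 7.23, 8.00 and 7.79 at 48 h, against 8.54, 8.69 and 8.28 at 0 h. The arrays of the 2 times did not overlap, and replicate 1 was the lowest at 48 h. The difference was -0.83 (SE 0.18, adjusted p = 0.00356, limma), and the call held under all 15 alternatives, with adjusted p between 0.00103 and 0.0457. At 4 to 24 h its differences ran from -0.11 to -0.35 and did not pass. The F test (adjusted p = 0.0311) was lost after quantile normalization (adjusted p = 0.0760) and without replicate 1 or 2 of 0 h or replicate 1 or 3 of 48 h, with an adjusted p of up to 0.153.

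PSME4, the PA200 cap, had its highest values early. It had 9.12, 9.41 and 9.24 at 4 h, against 8.77, 8.82 and 8.67 at 0 h. All PSME4 arrays of 4, 8, 12 and 24 h lay above those of 0 h. The differences were 0.50, 0.43, 0.39 and 0.36 at these times (adjusted p = 0.0660, 0.0687, 0.0880 and 0.0943) and 0.08 at 48 h, so none was called alone. The F test over all times passed narrowly (adjusted p = 0.0460) and was lost in 19 of 26 alternatives, among them the omission of any 0 h array, with an adjusted p of up to 0.125. PSMF1, the inhibitor PI31, had 5.97, 7.13 and 7.35 at 48 h, against 6.90, 7.29 and 7.02 at 0 h, and was not called at any time.

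In the 20S core, 2 of 16 genes (12.5%) fell at 48 h, against 8.11% of all genes. Of the 16 genes, 13 had negative differences, against 8040 of 18417 over all genes. The median of the 16 was -0.39, against 0.05 over all genes. Of the 8 alpha subunits, which form the gated outer rings, PSMA3 fell. It had 8.29, 8.41 and 8.56 at 48 h, against 8.93, 9.26 and 8.75 at 0 h. The arrays did not overlap, and the difference was -0.56 (SE 0.17, adjusted p = 0.0342). The call was lost without replicate 1 or 2 of 0 h or replicate 1 or 2 of 48 h, down to -0.42 (adjusted p = 0.174) without replicate 2 of 0 h. All 8 alpha subunits had negative differences at 4, 8 and 12 h, with medians of -0.28, -0.28 and -0.31. Over all 18417 genes, 8431, 9832 and 7905 had negative differences at these times. PSMA8, dim on all 18 arrays, differed by -0.05, -0.007 and -0.20. At these times 0 of the 8 alpha subunits were called, against 1.75%, 6.68% and 8.05% of all genes. PSMA2, PSMA4 and PSMA7 had 48 h arrays wholly below those of 0 h, at -0.36, -0.34 and -0.53, without passing the test.

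PSMA5 was the alpha subunit that passed the F test (adjusted p = 0.0428). It had 8.41, 8.06 and 8.96 at 4 h, against 9.02, 9.18 and 9.07 at 0 h, a difference of -0.61 (adjusted p = 0.198). At 24 h it read 9.62, 9.57 and 8.98 and at 48 h 9.34, 9.41 and 9.18, differences of 0.30 and 0.22 from 0 h. The gene was thus below its 0 h arrays at 4 h and not below them on average at 24 and 48 h. The F test was lost in 14 of 26 alternatives, with the highest adjusted p, 0.163, without replicate 2 of 4 h. PSMA6, next in order of F test p, had a difference of -0.60 at 4 h and -0.04 at 48 h (F test adjusted p = 0.105). PSMA1 differed by -0.37 and PSMA8 by 0.07 at 48 h.

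Among the beta subunits, which hold the proteolytic sites, PSMB2 fell. It had 8.69, 8.88 and 8.90 at 48 h, against 9.23, 9.41 and 9.56 at 0 h. The arrays did not overlap, and the difference was -0.58 (SE 0.19, adjusted p = 0.0419). The call was lost on omitting any array of the 2 times other than replicate 1 of 0 h, with adjusted p of 0.0617 to 0.142. PSMB5, the chymotrypsin-like site and target of the drug bortezomib, had 5.84, 6.50 and 7.30 at 48 h, against 7.78, 7.57 and 7.52 at 0 h. This was the most negative member difference at 48 h, -1.08 (SE 0.36), and it narrowly missed the threshold (adjusted p = 0.0542). The sites PSMB6 and PSMB7 differed by -0.49 and -0.46, each with replicate 1 as the lowest 48 h array. PSMB3 and PSMB4 differed by -0.57 and -0.41, and PSMB1 and PSMB11 by -0.07 and 0.03. Of the 8 beta subunits, 0 passed the F test, against 16.4% of all genes, and PSMB2 and PSMB5 had the smallest p.

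**Figure D4:**
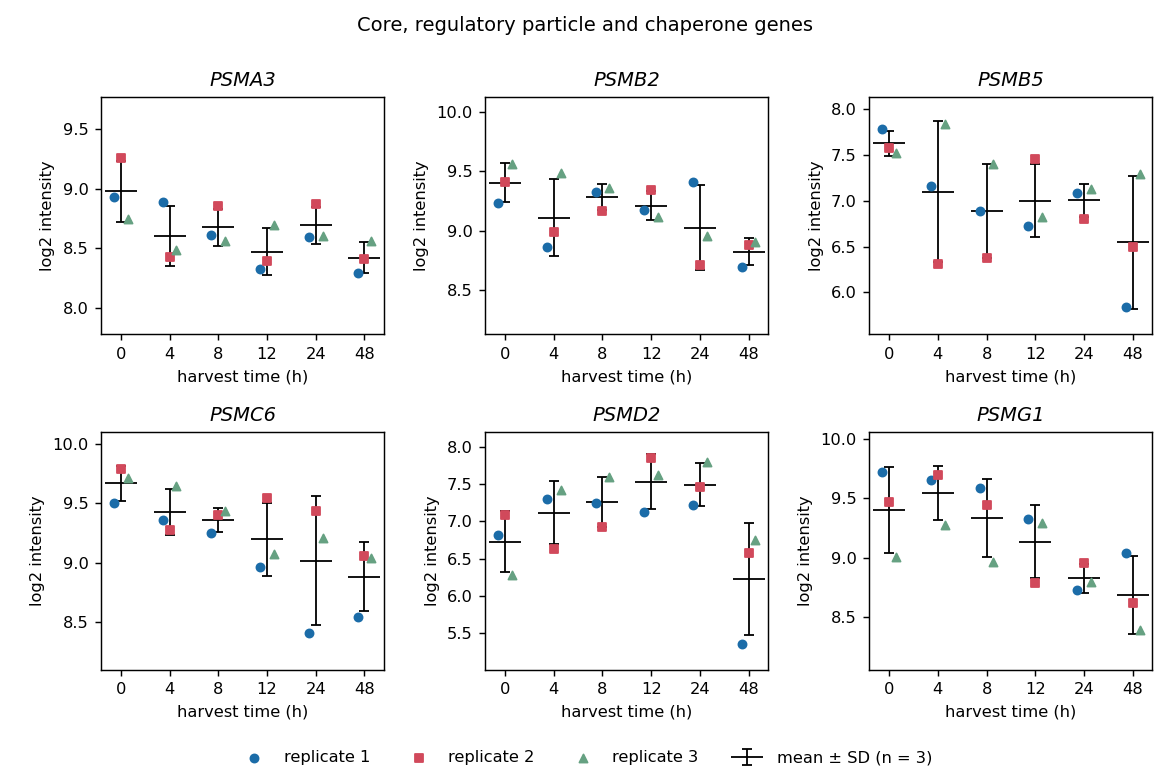
Log2 intensity by harvest time (h) of the core genes PSMA3, PSMB2 and PSMB5, the 19S genes PSMC6 and PSMD2, and the chaperone gene PSMG1. Points are single arrays, coloured by replicate number, and black bars are means ± SD of 3 arrays. All 6 genes have their lowest mean at 48 h, and PSMD2 has its highest at 12 and 24 h.

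Of the 17 genes grouped under the 19S particle, 1 (5.88%) rose at 8 h, against 3.50% of all genes. At 48 h, 1 (5.88%) fell, against 8.11% of all genes. PSMC6, an ATPase of the ring, had 8.54, 9.05 and 9.04 at 48 h, against 9.50, 9.79 and 9.71 at 0 h. The arrays did not overlap, and the difference was -0.79 (SE 0.23, adjusted p = 0.0250). It was lost without replicate 2 or 3 of 0 h or replicate 1 of 48 h, with adjusted p of 0.0674 to 0.127. Its means from 0 h to 48 h were 9.67, 9.43, 9.36, 9.20, 9.02 and 8.88, each lower than the one before, although no step between neighbouring times passed. A second probe set of PSMC6 gave a difference of -0.82. PSMC2, another ATPase, had arrays above those of 0 h at all 5 later times, with differences of 0.22 to 0.38 and adjusted p no lower than 0.0844. PSMC1, PSMC3 and PSMC4 differed by -0.14, -0.70 and 0.23 at 48 h.

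PSMD12, a scaffold subunit of the 19S lid, had 9.33, 9.36 and 9.34 at 8 h, against 8.87, 8.82 and 8.44 at 0 h. It rose 1.55-fold, a difference of 0.64 (SE 0.13, adjusted p = 0.00631, limma). This was 1 of 42 members called at 8 h (2.38%), against 6.68% of all genes, and the 1 called higher stands against 3.50% of all genes. Its differences at 4, 12, 24 and 48 h were 0.39, 0.38, 0.20 and 0.04. The F test (adjusted p = 0.0123) passed in the main fit and in all 26 alternatives. The call at 8 h was lost in 1 of 15 alternatives, the fit of the arrays of 0 h and 8 h alone (adjusted p = 0.101).

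PSMD2, a large base subunit that docks ubiquitin-carrying partners, had 7.12, 7.85 and 7.62 at 12 h, against 6.82, 7.08 and 6.28 at 0 h. At 48 h it had 5.36, 6.57 and 6.74. It lay above all 0 h arrays at 12 h and 24 h, with differences of 0.80 and 0.76 (adjusted p = 0.157 and 0.160), and differed from 0 h by -0.50 at 48 h (adjusted p = 0.373). The difference between 48 h and 24 h was -1.27 (SE 0.33, adjusted p = 0.117), and all 48 h arrays lay below those of 24 h. The F test passed (adjusted p = 0.0419) and was lost in 11 of 26 alternatives, with the highest adjusted p, 0.105, without replicate 1 of 48 h.

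The other 10 PSMD genes were not called. PSMD6, a lid subunit, had arrays above those of 0 h at 8 h and 12 h, at 0.35 and 0.41 (adjusted p = 0.127 and 0.0558). PSMD5, which acts as a chaperone of 19S base assembly, lay below all 0 h arrays at 8, 12 and 48 h, at -0.66, -0.80 and -0.68 (adjusted p = 0.139, 0.0546 and 0.0726). PSMD10, the oncoprotein gankyrin and likewise a base chaperone, differed by -0.59 at 48 h with arrays that did not overlap. PSMD14, the deubiquitinase of the lid, was the steadiest member, with time means within 0.10 of each other. PSMD1, PSMD3, PSMD4, PSMD8, PSMD9 and PSMD11 differed from 0 h by -0.63 to 0.14 at 48 h.

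The 4 PSMG assembly chaperones, which build the alpha ring in 2 pairs, gave 1 call at 48 h (25%), against 15.0% of all genes. PSMG1 had 9.04, 8.62 and 8.39 at 48 h, against 9.73, 9.47 and 9.01 at 0 h. The difference was -0.71 (SE 0.22, adjusted p = 0.0378), although the arrays of the 2 times overlapped, and the call was lost without replicate 1 or 2 of 0 h or replicate 2 or 3 of 48 h, with adjusted p of 0.102 to 0.160. Its partner PSMG2 had 7.40, 7.11 and 6.65 at 48 h, against 7.85, 7.65 and 8.10 at 0 h, a difference of -0.82 that did not pass (adjusted p = 0.0793). PSMG2 also lay below all 0 h arrays at 12 h and 24 h, at -0.69 and -0.64. The second pair, PSMG3 and PSMG4, differed by -0.12 and 0.07 at 48 h.

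Across the whole course, 8 of 42 members (19.0%) passed the F test, against 16.4% of all genes. They were PSME1, PSME2, PSME3, PSME4, PSMD12, PSMD2, PSMA5 and PSMG1, so that 4 of the 5 cap and inhibitor genes were among them. Without single arrays the count ran from 3, without replicate 1 of 0 h, to 10. At 4, 12 and 24 h, 0 members were called by limma, against 1.75%, 8.05% and 12.5% of all genes, and 7, 10 and 9 of 42 members had an unadjusted p under 0.05, against 13.0%, 20.9% and 22.7% of all genes. Between consecutive times, 0 members were called as well, against 0.223% of all genes from 4 h to 8 h, 0% from 8 h to 12 h, 1.37% from 12 h to 24 h and 0.402% from 24 h to 48 h. Members with an unadjusted p under 0.05 numbered 0, 0, 3 and 5 of 42 in these steps, against 8.58%, 6.63%, 11.1% and 9.47% of all genes. Without replicate 3 of 48 h, 1 member, PSMD2, was called between 48 h and 24 h.

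Members whose 48 h arrays lay wholly on one side of the 0 h arrays were counted next. Of 42 members, 12 lay below, against 13.2% of all genes, and 4 lay above, against 15.2% of all genes. Those below were PSMA2, PSMA3, PSMA4, PSMA7, PSMB2, PSMB3, PSMB5, PSMC6, PSMD5, PSMD10, PSME3 and PSMG2, and those above were PSME1, PSME2, PSMA5 and PSMC2. The lowest time mean fell at 48 h for 19 members, and the highest at 0 h for 17 members.

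The inducible catalytic subunits PSMB8, PSMB9 and PSMB10 replace their constitutive counterparts in the immunoproteasome. Of these 3, 2 were called higher at 24 h, against 1241 of 18417 genes. At 48 h 1 was called higher, against 6.92% of all genes. PSMB9 had 8.46, 8.74 and 8.32 at 48 h, against 6.99, 7.89 and 7.13 at 0 h, a difference of 1.17 (SE 0.35, adjusted p = 0.0285). It was lost without replicate 1 or 3 of 0 h or replicate 1 or 2 of 48 h, with adjusted p of 0.0636 to 0.111. PSMB8 had 8.27, 7.78 and 6.88 at 24 h, against 6.05, 6.29 and 6.21 at 0 h, a difference of 1.46 (SE 0.39, adjusted p = 0.0191), and one of 0.92 at 48 h (adjusted p = 0.140). The call at 24 h was lost without replicate 1 of 0 h or replicate 1 or 2 of 24 h, with adjusted p of 0.0644 to 0.114. PSMB9 at 24 h differed by 1.10 (adjusted p = 0.0455), which was 0.73 without replicate 1 of 24 h (adjusted p = 0.260) and was lost without replicate 1 or 3 of 0 h or replicate 2 of 24 h as well. PSMB10 had 5.52, 5.70 and 5.43 at 48 h, against 6.02, 5.58 and 5.43 at 0 h, and was not called at any time.

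At 24 h against 12 h, PSMB8 rose by 2.06 (adjusted p = 0.0103) and PSMB9 by 1.56 (adjusted p = 0.0316), while PSME1 and PSME2 differed by 0.46 and 0.57 without passing the test. These calls were lost on leaving out single arrays, for PSMB8 replicate 1 or 2 of 12 h or of 24 h, with adjusted p of up to 0.0833, and for PSMB9 any array but replicate 3 of 24 h, with adjusted p of up to 0.198. Outside the members, the 10 genes whose profile over the 18 arrays was most like the mean of PSME1 and PSME2 were OAS1, SP140, OAS2, MOXD1, LAP3, PARP9, CCL3, RIGI, IFIT1 and XAF1. Their Pearson r ran from 0.939 for OAS1 to 0.911 for XAF1. PSMB9 stood 18th with r = 0.895 and PSMB8 158th with r = 0.797. PSMB10 had r = 0.179. Among the other 40 members r was highest for PSMA5, at 0.678, and lowest for PSMC6, at -0.676. These arrays share harvest times, so the values describe the profiles only.

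Of 9 listed genes of interferon signalling and class I presentation, 8 were measured. Over all 18417 genes, 1241 were called higher at 24 h and 1275 at 48 h. Of the 8 listed genes, 3 rose at 24 h and at 48 h. They were the transcription factor gene IRF1 (2.79 and 2.02), the peptidase gene LAP3 (1.22 and 1.32) and the peptide transporter gene TAP1, with adjusted p between 0.00187 and 0.0191. TAP1 had 8.17, 8.96 and 7.71 at 48 h, against 6.19, 6.52 and 6.14 at 0 h. The list's median difference was 0.70 at 24 h and 0.65 at 48 h. Replicate 3 of 24 h was the lowest of its time for all 3 genes, with 5.29 for IRF1 against 8.59 and 7.81 on the other 24 h arrays, and it was the lowest for PSME1, PSME2, PSMB8 and PSMB9 too. The IRF1 call at 48 h was lost without replicate 2 of 0 h or replicate 1 or 2 of 48 h, with adjusted p of 0.0667 to 0.102. The trimming peptidase gene ERAP1 fell at 8, 12 and 24 h, by 0.93, 1.38 and 0.73 on the log2 scale. The call at 8 h was lost without replicate 1 or 2 of 0 h or replicate 2 of 8 h, and that at 24 h on omitting any array of the 2 times, with adjusted p of up to 0.176. B2M, the class I light chain, passed the F test (adjusted p = 0.0359) and differed by 0.58 at 48 h (adjusted p = 0.151). NLRC5, TAP2 and TAPBP differed by 0.59, 0.70 and 0.37 at 48 h without being called.

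Among 6 other proteasome components and assembly factors, 1 rose and 2 fell at 48 h, against 6.92% and 8.11% of all genes. POMP, which matures the core particle, had 10.46, 10.14 and 10.15 at 48 h, against 9.76, 9.73 and 9.46 at 0 h, a difference of 0.60 (adjusted p = 0.00655) that was 0.46 after centring (adjusted p = 0.0652). It rose by 0.61 at 24 h and by 0.53 at 8 h. The call at 8 h was lost after centring (adjusted p = 0.0542) and without replicate 2 or 3 of 0 h or replicate 1 or 2 of 8 h, with adjusted p of 0.0555 to 0.131. ECPAS, a scaffold that binds the 26S particle, had 7.04, 7.01 and 7.42 at 12 h, against 8.66, 8.81 and 8.91 at 0 h. It fell 3.11-fold at 12 h (adjusted p = 2.29e-05) and was lower at 8, 24 and 48 h by 1.36, 1.24 and 0.91, and these 4 calls held under all 15 alternatives each. PAAF1, a chaperone of the 19S ATPases, fell by 1.24 at 8 h and by 1.12 at 48 h (adjusted p = 0.0264 and 0.0254). The call at 8 h was lost without replicate 3 of 0 h or replicate 2 of 8 h, and that at 48 h without replicate 3 of 0 h or replicate 1 or 2 of 48 h, with adjusted p of up to 0.136. SEM1, ADRM1 and TXNL1 were not called.

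**Figure D5:**
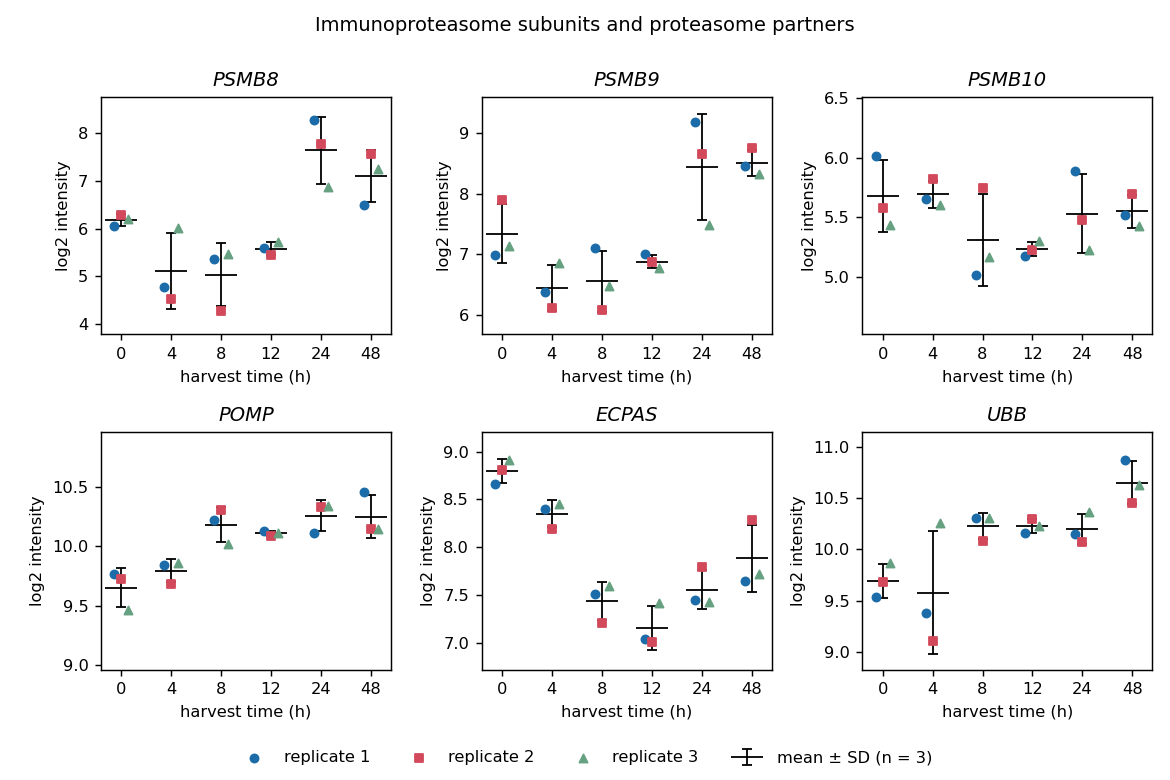
Log2 intensity by harvest time (h) of the immunoproteasome genes PSMB8, PSMB9 and PSMB10, the assembly factor POMP, the proteasome scaffold ECPAS and the ubiquitin gene UBB. Points are single arrays, coloured by replicate number, and black bars are means ± SD of 3 arrays. PSMB8 and PSMB9 are highest at 24 and 48 h, PSMB10 is not, and ECPAS is lowest at 12 h.

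Over all 18417 genes, 1241 were called higher at 24 h and 1275 at 48 h. Of the 3 ubiquitin system genes measured, the ubiquitin precursor gene UBB rose at 48 h. It had 10.87, 10.45 and 10.63 at 48 h, against 9.54, 9.68 and 9.87 at 0 h, a difference of 0.95 (adjusted p = 0.00531). The activating enzyme gene UBA1 rose by 0.88 at 24 h (adjusted p = 0.0405), which was 0.79 after centring (adjusted p = 0.0621), 0.58 without replicate 3 of 0 h (adjusted p = 0.210), 0.68 without replicate 1 of 24 h (adjusted p = 0.198) and 0.94 without replicate 3 of 24 h (adjusted p = 0.0610). The second activating enzyme gene, UBA6, differed by 0.51 at 24 h and was not called. Of 3 genes for the control of proteasome transcription, NFE2L2 rose by 0.60 at 24 h and 0.63 at 48 h (adjusted p = 0.0150 and 0.00915). The call at 24 h was lost without replicate 1 or 2 of 0 h or replicate 2 of 24 h, with adjusted p of up to 0.0852. That at 48 h missed the threshold on omitting replicate 2 of 0 h (adjusted p = 0.0542) or replicate 1 of 48 h (adjusted p = 0.0551). NFE2L1, which drives proteasome genes when the proteasome is inhibited, had 7.44, 7.52 and 7.70 at 48 h, against 5.88, 6.12 and 7.32 at 0 h, a difference of 1.12 that did not pass (adjusted p = 0.0995). NGLY1, whose product processes the NFE2L1 protein, differed by -0.68. The 3 deubiquitinase and ligase genes were USP14, UCHL5 and UBE3C. The 5 measured shuttle factors and unfoldase were RAD23B, UBQLN1, UBQLN2, UBQLN4 and VCP. At every later time these genes had 0 calls against 0 h. Over all genes, 1.75% were called at 4 h and 15.0% at 48 h. The 48 h differences of the listed genes ran from -0.38 to 0.19.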

How the data were processed

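Expression was measured on 18 Affymetrix arrays, 3 per harvest time. Per the labels' protocols, total RNA was column-purified and biotinylated cDNA was made from it. The values deposited by the authors are log2 intensities (the base was deduced from their range) and were used as deposited. Which software, background correction, normalization and build stood behind them is not given in the sources used here. No counts stand behind a value, so the number of arrays limits the precision.

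The platform's gene table named 1 gene for 19460 of 33297 probe sets, several for 1754, and 12083 were unnamed here. By gene ID, 19429 of the 19460 probe sets naming 1 gene were found in the reference table. Of 18417 genes, 769 had more than 1 such probe set, among them PSMC1 and PSMC6. Harvest time was the only term of the limma model (version 3.58.1, run under R 4.3.3), and the fit used all 18 arrays (moderated two-sided tests and F test, 12 residual and 5.58 prior degrees of freedom). Adjusted p-values are by Benjamini-Hochberg over 18417 genes within each comparison, and the call is at 0.05. The fit was also run on simulated data with independent noise for each gene and array. Such data cannot test shifts of whole arrays or links between replicates. Python 3.11.15, pandas 2.3.3 and matplotlib 3.10.9 made tables and plots.

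The members, lists and tests were chosen with earlier results of these data known. PSME1 and PSME2 were named in full. In each role group up to 4 further members past the F test with the largest differences were named, or those of smallest F test p where fewer than 2 passed. All other members, and those called at a single time, are given by value. Partner genes were named where they passed the F test, and the others to spell out counts of 5 or fewer or to complete a list, after their values were seen. The 10 genes most like PSME1 and PSME2 were taken by Pearson r with the mean of both. Whether same-numbered arrays of different times pair was not settled, and the main fit left replicate number out. The correlation of their deviations from the group means was over 0.1 in 20 of 45 pairs (median 0.078). For unlike numbers it was over 0.1 in 25 of 90 pairs (median -0.059). The labels name no shared culture or day, and p-values measure only the spread between these replicates. Alternatives were quantile normalization, median centring, omission of the dimmest 25% of genes, the mean of all probe sets, array weights, the interquartile range as a covariate, a replicate block, a fit of only the 2 times compared, and the omission of single arrays. Omitting replicate 2 of 8 h and replicate 3 of 24 h together was added after seeing the data. Promoters and gene order came from RefSeq (GRCh38.p14), and no coordinates of the array's own build were used.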

Additional observations from a re-analysis of the deposited data

How the results depend on the processing

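PSME1, PSME2 and PSMD12 passed the F test, and PSME3 was called at 48 h, under every alternative run; no called value changed sign. The number of members past the F test ran from 3 to 10 without single arrays. At 48 h, 7 calls became 3 after quantile normalization and 12 after median centring, and ran from 2 to 6 without single arrays. PSME1 at 48 h was not called after centring (0.39) or with only the 2 times fitted (0.53, adjusted p = 0.0834), and ran from 0.43 to 0.63 without single arrays. PSME2 at 48 h ran from 0.58 to 0.94. PSME2 at 24 h was called after quantile normalization (0.67), without the dimmest 25% of genes (0.61) and with a replicate block (0.61, adjusted p = 0.0106), and ran from 0.41 to 0.77 without single arrays. In place of 0 calls, 24 h gave 4 after quantile normalization, 1 without the dimmest 25% of genes, 2 with array weights, 2 with a replicate block, 2 with only the 2 times fitted, and 0 to 1 without single arrays. For 12 h, quantile normalization gave 5 (all higher), centring 2 (both lower), array weights and the range covariate 3 each, only the 2 times 2, and the omission of the dimmest 25% of genes, the replicate block and the joint omission of 2 arrays 1 each. The 1 call at 8 h became 3 with array weights and 0 with only the 2 times fitted. For 4 h, array weights gave 1 and the range covariate 2. Array weights gave 2 calls from 4 h to 8 h and 1 from 12 h to 24 h, and single omissions 0 to 1 from 24 h to 48 h. The 8 h weights were 5.184, 0.2458 and 0.8266, so weighted 8 h values rest mostly on 1 array. With the replicate block, 9 members were called at 48 h and 8 passed the F test. The cause of these changes was not tested. Of 15 alternatives at 48 h, PSMA3 lost its call in 7, PSMB2 in 8, PSMC6 in 5 and PSMG1 in 6. No background level was measured, and PSMA8 and PSMB11 lay below the lower quartile of all genes on all 18 arrays.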

Other observations

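The protein-coding genes beside PSME1 and PSME2 in the RefSeq order of chromosome 14 are FITM1, EMC9 and RNF31, and they were looked at for their position alone. RNF31, which encodes the catalytic subunit of the linear ubiquitin chain assembly complex and lies next to PSME2, had 6.13, 5.76 and 5.82 at 24 h, against 4.93, 4.65 and 4.81 at 0 h. It rose by 1.11 (SE 0.19, adjusted p = 0.000555, limma) at 24 h and by 0.83 (SE 0.19, adjusted p = 0.00426) at 48 h, with no overlap between the arrays and with both calls held under all 15 alternatives. EMC9, which lies between PSME1 and PSME2, had 4.83, 5.41 and 4.47 at 48 h, against 4.76, 5.33 and 5.53 at 0 h, a difference of -0.30 (adjusted p = 0.604). FITM1, on the other side of PSME1, differed by -0.11 at 48 h (adjusted p = 0.809). In the order FITM1, PSME1, EMC9, PSME2 and RNF31, the called genes at 48 h were PSME1, PSME2 and RNF31, all higher.

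Among the markers of other cells, 1 of 6 for T cells was called at 24 h, against 12.5% of all genes. It was CD3D, a T cell receptor chain gene, higher by 1.57. Of the 6, 4 had positive and 2 negative differences, with a median of 0.07. The mean level of the 6 lay between 3.41 and 3.65 on the 24 h arrays, against 3.19 to 3.34 on the 0 h arrays. Of the 5 monocyte and macrophage markers, ITGAM, a myeloid integrin gene, was called higher at 24 h (0.85) and at 48 h (0.82). Over all 18417 genes, 1241 were called higher at 24 h and 1275 at 48 h. At 24 h, 3 of the 5 had positive and 2 negative differences, with a median of 0.20, and their mean level lay between 3.60 and 3.85, against 3.33 to 3.60 at 0 h. All 5 measured B cell markers had negative differences from 0 h at every later time. At 8 h 1 was called lower, at 12 h 3 and at 48 h 1, against 586, 763 and 1493 of 18417 genes. PAX5, MS4A1 and CD22 fell at 12 h, by 1.34, 1.26 and 1.29, and CD79A fell by 1.77 at 48 h. The mean of the 5 B cell markers lay between 6.52 and 7.43 on the 48 h arrays, against 7.69 to 7.81 on the 0 h arrays. The part of these markers in the results above was not tested.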
